A study of Rattus norvegicus with 6 samples.

Results

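The genes described here are 35 markers of macrophages and other myeloid cells, followed through the development of the rat lateral ventricle choroid plexus (LVCP). They were chosen by symbol, and each was read from 1 probe set, the one with the highest mean over the 6 arrays among the probe sets annotated to that gene alone. Of the 35 genes, 32 had such a probe set, among 14217 genes that had one. Msr1, Spi1 and Siglec1 had none and are not analysed here. A gene was tested where its mean intensity reached 100 units in at least 1 stage, which held for 25 of the markers and for 10334 genes in all. Of those 25, Cd68 and Ptprc reached that mean at P2 only and F13a1 at E19 only. These genes were thus tested only through the stage where they were highest, and calls against that stage carry this limit. Mrc1, Adgre1 and Lyve1 reached that mean in 2 stages.

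All animals were Sprague-Dawley rats with no treatment or genetic change named. The stages were embryonic day 19 (E19), postnatal day 2 (P2) and adult, with 2 arrays per stage, and each array held RNA of 1 pool of plexuses from several animals. The study asked how protective functions of the barrier between blood and cerebrospinal fluid are set up during development. Values are MAS5 signal intensities, which set each array to the same trimmed mean of 500.0 units, and probe sets differ in brightness, so levels were compared between stages and not between genes. Whole plexus was measured, so that fewer cells of a type and less RNA per cell cannot be told apart.

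Macrophages of the choroid plexus sit in the stroma under the epithelium and on its ventricular face. They depend on the receptor CSF1R, engulf debris, sample what passes the barrier, and make complement and lysosomal enzymes. Macrophages at the borders of the brain are commonly described by the receptors LYVE1, CD163 and the mannose receptor, whereas genes such as Gpnmb, Lyz2 and Ctss are known from phagocytes with a high lysosomal load.

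The promoters of 6 markers with large differences are shown because these genes ran in opposite directions, Lyve1, Mrc1 and F13a1 lower in the adult and Ctss, Lyz2 and Gpnmb higher. Each line gives the 250 bases before the transcription start, 5′ to 3′ on the strand of the gene, from RefSeq on build GRCr8. Capitals mark matches on either strand to the core of PU.1 sites (GAGGAA), the factor that directs myeloid genes, to the E-box CACGTG or the M-box TCATGTG, both bound by the MITF and TFE factors of lysosomal genes, or to a MAF recognition element fragment (TGCTGA).
Lyve1: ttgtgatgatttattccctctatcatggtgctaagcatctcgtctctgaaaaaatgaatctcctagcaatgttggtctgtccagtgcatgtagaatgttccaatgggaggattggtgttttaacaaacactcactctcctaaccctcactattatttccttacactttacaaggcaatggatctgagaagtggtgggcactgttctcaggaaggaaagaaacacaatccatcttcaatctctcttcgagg
Mrc1: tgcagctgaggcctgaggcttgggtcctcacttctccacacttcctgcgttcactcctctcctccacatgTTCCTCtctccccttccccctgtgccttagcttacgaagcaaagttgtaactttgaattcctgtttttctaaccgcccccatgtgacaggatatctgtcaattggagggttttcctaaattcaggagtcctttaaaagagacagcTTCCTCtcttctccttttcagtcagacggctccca
F13a1: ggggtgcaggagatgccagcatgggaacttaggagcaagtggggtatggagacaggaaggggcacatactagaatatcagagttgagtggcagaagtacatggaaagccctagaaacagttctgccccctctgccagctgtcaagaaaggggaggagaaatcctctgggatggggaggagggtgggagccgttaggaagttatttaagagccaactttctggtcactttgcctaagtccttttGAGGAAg
Ctss: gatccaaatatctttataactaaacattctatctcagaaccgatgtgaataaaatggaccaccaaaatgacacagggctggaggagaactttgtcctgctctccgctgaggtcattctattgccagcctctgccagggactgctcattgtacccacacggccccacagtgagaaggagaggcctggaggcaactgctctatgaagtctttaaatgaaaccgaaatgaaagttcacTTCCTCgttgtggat
Lyz2: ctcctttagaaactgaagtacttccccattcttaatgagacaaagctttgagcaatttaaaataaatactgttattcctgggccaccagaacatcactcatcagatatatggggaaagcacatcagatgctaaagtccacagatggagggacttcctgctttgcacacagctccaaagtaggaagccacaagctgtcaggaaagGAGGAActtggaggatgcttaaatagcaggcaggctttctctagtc
Gpnmb: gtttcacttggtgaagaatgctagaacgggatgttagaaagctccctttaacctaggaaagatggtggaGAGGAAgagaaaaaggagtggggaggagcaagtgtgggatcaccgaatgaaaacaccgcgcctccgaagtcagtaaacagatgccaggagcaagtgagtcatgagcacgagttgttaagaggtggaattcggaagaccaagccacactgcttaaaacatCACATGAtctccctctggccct
The Lyve1 stretch lies at chr1:174410978-174411227 on the minus strand and that of Lyz2 at chr7:54798012-54798261, also on the minus strand. The others lie on the plus strand, Mrc1 at chr17:82157475-82157724, F13a1 at chr17:28020947-28021196, Ctss at chr2:185775146-185775395 and Gpnmb at chr4:79340878-79341127. The PU.1 core was in 5 of the 6 stretches, with 2 matches in Mrc1 and none in Lyve1. The M-box letters were in Gpnmb alone of these 6, and the E-box and MAF letters in none of them. Of the 35 markers, 22 had a promoter in the RefSeq table, and 16 of these 22 held GAGGAA within the 250 bases, against 23.3% of 33360 distinct promoter stretches of that length. The M-box was in 3 of the 22 (Gpnmb, C1qa and C1qb, against 3.06% of all), the MAF recognition element fragment in 3 (C1qa, C1qb and Adgre1, against 15.1%), and the E-box in 0 (against 5.61%). These matches are descriptions of the letters only.

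The markers moved in different directions between the stages. From E19 to P2, 7 of the 25 tested markers rose and 0 fell at an adjusted p under 0.05 (limma, Benjamini-Hochberg over all tested probe sets), while 3.61% of all tested genes rose and 2.56% fell. From P2 to adult, 3 rose and 12 fell, beside 21.8% and 28.8% of all tested genes. Between E19 and adult, 8 were higher and 6 lower in the adult, beside 25.2% and 31.4% of all tested genes. The median log2 difference over the tested markers was 0.59 for P2 minus E19, -0.54 for adult minus P2 and 0.11 for adult minus E19, and over all tested genes it was 0.01, -0.05 and -0.04. The comparisons share arrays, since each stage enters 2 of them. Centring each array on its median moved the median adult minus E19 difference of the tested probe sets from -0.05 to 0.23. With that centring, 13 markers were higher and 6 lower in the adult than at E19.

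**Figure D1:**
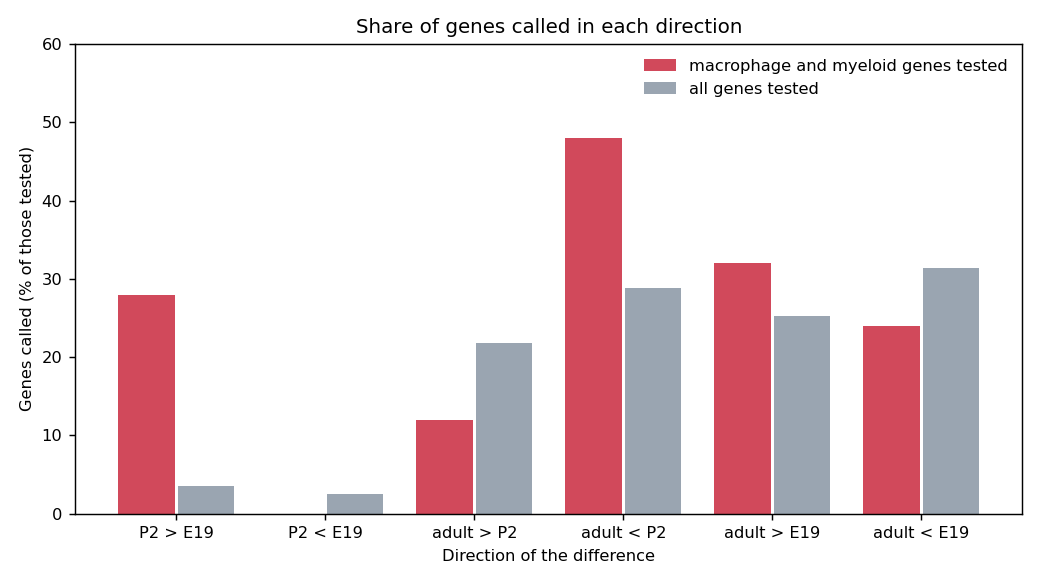
Bars give the percentage of tested genes called at an adjusted p under 0.05 in each direction, for the 25 tested macrophage and myeloid genes and for all 10334 tested genes. The markers stood above the background for P2 over E19 (28% against 3.61%) and for adult under P2 (48% against 28.8%), and below it for adult over P2 (12% against 21.8%).

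The calls of a P2 rise depended on single arrays. The count of 7 became 0 when either E19 array or either P2 array was left out, 4 when either adult array was left out, and 1 with a replicate block. Without E19 replicate 1, E19 replicate 2 or P2 replicate 2, no gene of the whole table was called in that direction, and without P2 replicate 1 it was 1 gene. Both P2 values lay above both E19 values in 19 of the 25 tested markers, where 33.1% of all tested genes did so. P2 pool 1 was brighter than P2 pool 2 in 18 of the 25, by a median ratio of 1.12, whereas 49.7% of all tested genes were brighter in that pool. The part of this pool difference in the P2 values was not tested.

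**Figure D2:**
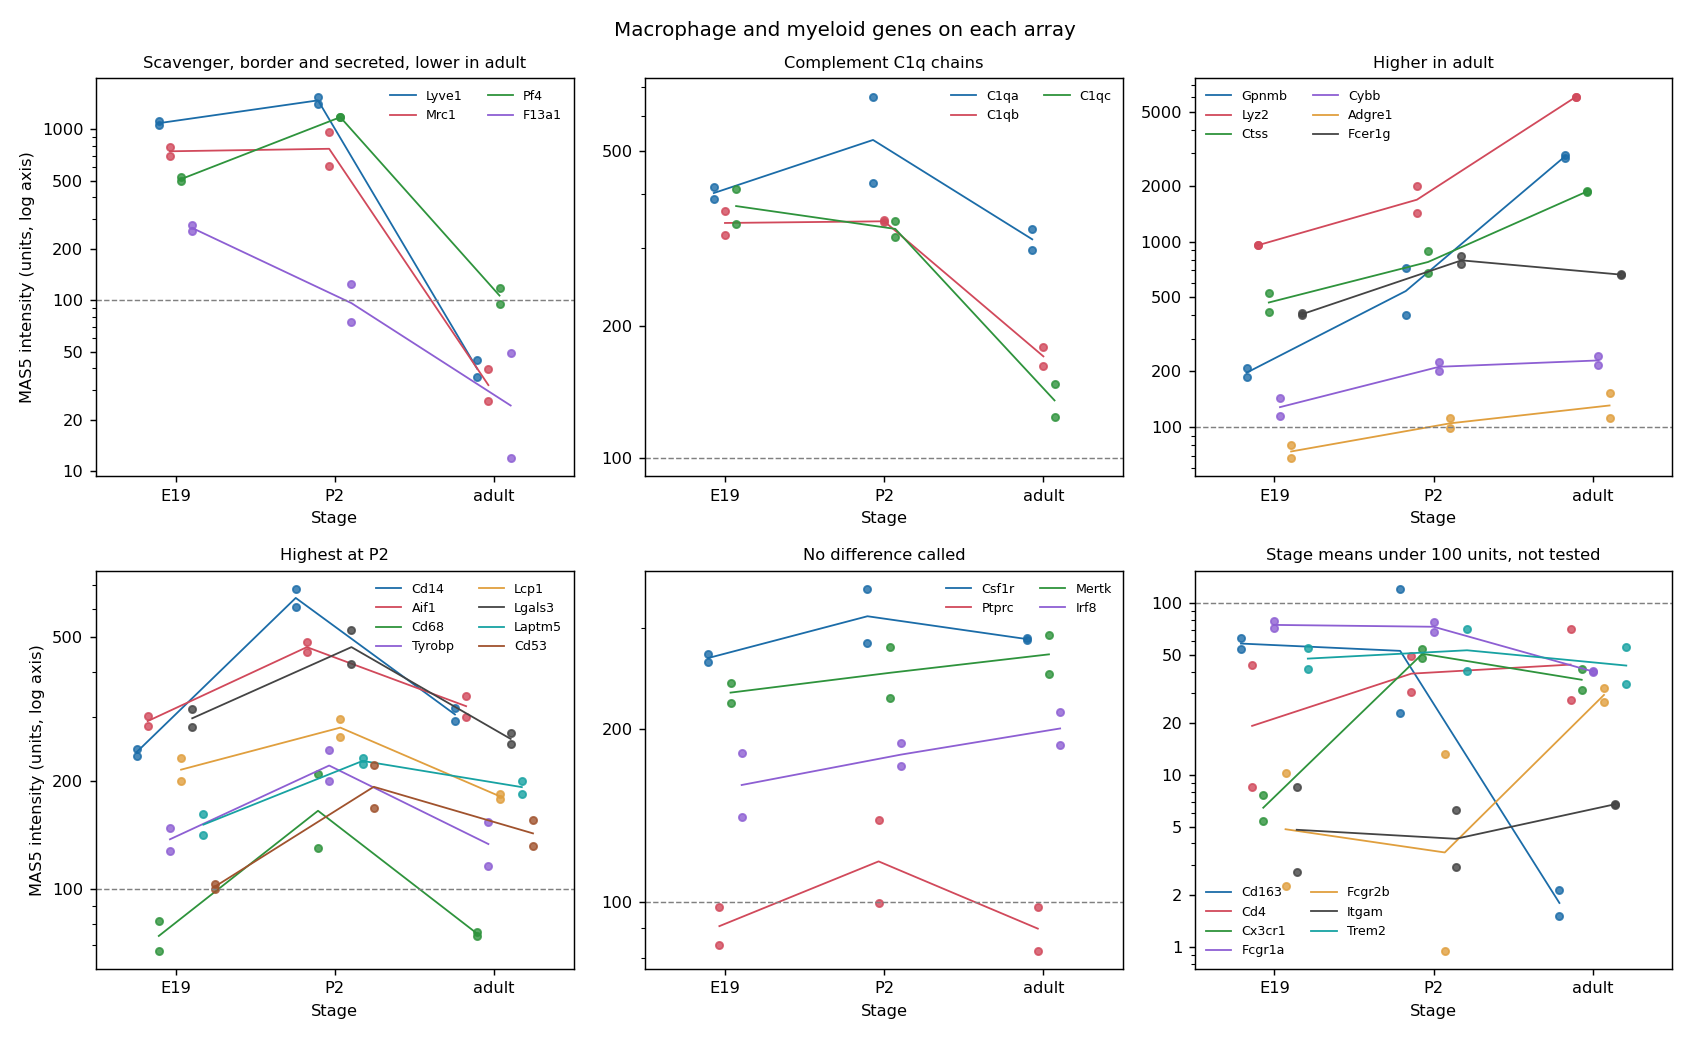
Points give the MAS5 intensity on each array (log axis) and lines join the geometric means of the 2 pools per stage, with the dashed line at 100 units. Lyve1, Mrc1, Pf4 and F13a1 drop by the adult stage, Gpnmb, Lyz2 and Ctss climb to it, the genes of the lower left panel peak at P2, and Csf1r, Ptprc, Mertk and Irf8 have no called difference (adult minus E19 passed for Csf1r, Mertk and Irf8 with arrays centred on their median).

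Lyve1 and Mrc1, receptors of border macrophages, fell below the floor by the adult stage. Lyve1, which encodes a hyaluronan receptor found on perivascular macrophages and on lymphatic endothelium, read 1055 and 1119 units at E19, 1402 and 1556 at P2, with 35.5 and 44.5 in adult pools. Both adult pools were below 100 units and far below every perinatal pool. The fitted adult minus P2 log2 difference was -5.21 ± 0.14 (SE, adjusted p = 8.01e-05, limma). As the adult values lay under the floor of 100 units, Lyve1 is given as at least 14.8-fold lower in the adult than at P2 and at least 10.9-fold lower than at E19. Its second probe set fell likewise, from 662 and 649 units at E19 and 791 and 905 at P2 to 41.2 and 14.4 in the adult.

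Mrc1, the mannose receptor, which takes up glycoproteins, read 794 and 698 units at E19, 964 and 614 at P2, with 39.7 and 25.7 in adult pools. The perinatal stages overlapped and both adult pools were below them. Mrc1 was at least 7.70-fold lower in the adult than at P2 (fitted log2 difference -4.59 ± 0.30 SE, adjusted p = 0.000453, limma) and at least 7.44-fold lower than at E19. Cd163, the haemoglobin scavenger receptor, read 54.1 and 62.7 units at E19, 120.7 and 23.1 at P2, with 1.52 and 2.14 in adult pools. Its mean reached 100 units in no stage, so it was not tested.

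Lymphatic endothelium, which also makes Lyve1, was checked through 5 genes, all on the array and none listed at 0. Prox1, its master transcription factor, fell too, from 216 and 234 units at E19 to 90.1 and 103 at P2, with 41.1 and 34.2 in adult pools (adult minus E19 log2 difference -2.59 ± 0.13 SE, adjusted p = 0.00020, limma). Prox1 reached a mean of 100 units at E19 alone, so it was tested only through its highest stage. Flt4 and Ccl21 had a mean under 100 units at every stage. Pdpn rose from E19 to P2 and fell after it, and Reln rose from 3138 and 3295 units at E19 to 10700 and 10332 in the adult. The summed intensity of the list ran from 5542 to 5819 at E19, 6760 to 8100 at P2 and 12730 to 13178 in the adult, where most of it was Reln. The part of these cells in the Lyve1 values was not tested.

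Of the other phagocytic receptors, Cd14, the co-receptor for bacterial lipopolysaccharide, peaked after birth. It read 245 and 234 units at E19, 608 and 680 at P2, with 294 and 318 in adult pools. The stages did not overlap, and P2 lay highest. Cd14 rose 2.68-fold from E19 to P2 (log2 difference 1.42 ± 0.10 SE, adjusted p = 0.0141, limma), fell 2.11-fold from P2 to adult (adjusted p = 0.00126), and was 1.27-fold higher in the adult than at E19 (adjusted p = 0.0348), the last a call lost without either E19 or either adult array. Mertk, a kinase receptor for the clearance of dying cells, read 241 and 223 units at E19, 278 and 227 at P2, with 250 and 292 in adult pools, and no difference passed the test.

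The secreted factors Pf4 and F13a1 also fell. Pf4, a chemokine of platelets and of some tissue macrophages, read 525 and 499 units at E19, 1180 and 1176 at P2, with 95.6 and 119 in adult pools. Every pool of one stage was apart from those of the others, with P2 highest and adult lowest. Pf4 rose 2.30-fold from E19 to P2 (log2 difference 1.20 ± 0.13 SE, adjusted p = 0.0220, limma) and fell 11.1-fold from P2 to adult (log2 difference -3.47 ± 0.13 SE, adjusted p = 0.000123), ending 4.80-fold below E19. F13a1, the transglutaminase chain of coagulation factor XIII, read 254 and 276 units at E19, 124.6 and 74.5 at P2, with 49.2 and 11.96 in adult pools. Its values stepped down from stage to stage without overlap, and both adult pools lay under 100 units. F13a1 reached a mean of 100 units at E19 alone, as did its second probe set, so each was tested only through its highest stage. It was at least 2.65-fold lower in the adult than at E19 (fitted log2 difference -3.45 ± 0.68 SE, adjusted p = 0.0104), a call lost without E19 replicate 2, and its second probe set, from 112 and 118 units at E19 to 14.6 and 5.03 in the adult, was lower as well (adjusted p = 0.00268).

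Platelets share Pf4 and F13a1 with macrophages. Of 7 platelet and megakaryocyte genes, 4 were on the array and none was listed at 0. Itga2b, the platelet integrin chain, read 332 and 269 units at E19, 310 and 301 at P2, with 275 and 301 in adult pools, with no difference called. Ppbp, Gp9 and Treml1 had means under 100 units at every stage. The summed list ran from 336 to 500 units at E19, 400 to 402 at P2 and 462 to 467 in the adult.

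The complement C1q chains join into the recognition subunit of the classical pathway. Their genes C1qb, C1qc and C1qa lie next to each other in the RefSeq annotation. All 3 were lower in the adult than at P2, where 28.8% of all tested genes were. C1qb read 322 and 365 units at E19, 348 and 344 at P2, with 179 and 162 in adult pools. C1qc read 342 and 410 units at E19, 346 and 319 at P2, with 148 and 124 in adult pools. For both, the perinatal pools overlapped and the adult pools lay below them. C1qb fell 2.03-fold from P2 to adult (log2 difference -1.02 ± 0.11 SE, adjusted p = 0.00162, limma) and C1qc 2.46-fold (-1.30 ± 0.14 SE, adjusted p = 0.00199). Against E19 they were 2.01-fold and 2.77-fold lower in the adult.

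C1qa read 413 and 389 units at E19, 665 and 422 at P2, with 298 and 333 in adult pools. Its adult pools were the lowest, but the pools of P2 were far apart. The P2 to adult fall of 1.68-fold passed narrowly (adjusted p = 0.0428, limma) and was lost in 11 alternatives, among them leaving out P2 replicate 1, where the log2 difference was -0.42.

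The phagocyte enzymes Lyz2 and Ctss went the other way. Lyz2, lysozyme, read 956 and 952 units at E19, 1988 and 1421 at P2, with 6048 and 6018 in adult pools. Ctss, cathepsin S, which cleaves the invariant chain of class II molecules, read 420 and 525 units at E19, 893 and 674 at P2, with 1879 and 1848 in adult pools. In both genes the 3 stages stood apart in the order E19, P2, adult, and the adult pools nearly coincided. Lyz2 was 6.32-fold higher in the adult than at E19 (log2 difference 2.66 ± 0.17 SE, adjusted p = 0.000334, limma) and 3.59-fold higher than at P2. Ctss was 3.97-fold higher than at E19 (log2 difference 1.99 ± 0.18 SE, adjusted p = 0.000861) and 2.40-fold higher than at P2. The step from E19 to P2 did not pass for either (adjusted p = 0.0554 for Lyz2 and 0.0780 for Ctss).

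Gpnmb, a transmembrane glycoprotein of phagocytes with loaded lysosomes that is also made by pigment and other cells, had the largest rise of the tested markers from E19 to adult. It read 185 and 208 units at E19, 723 and 404 at P2, with 2920 and 2834 in adult pools. No stage overlapped another, and the 1.79-fold gap between the P2 pools was the widest of any tested marker at P2. Gpnmb was 14.7-fold higher in the adult than at E19 (log2 difference 3.87 ± 0.28 SE, adjusted p = 0.000451, limma) and 5.32-fold higher than at P2. It was the one marker called higher in all 3 comparisons, although its E19 to P2 rise (2.76-fold, adjusted p = 0.0475) was lost in 10 alternatives. Lgals3, galectin-3, which binds damaged lysosomes and cell-surface sugars, read 281 and 316 units at E19, 422 and 523 at P2, with 270 and 252 in adult pools. It was 1.80-fold lower in the adult than at P2 (adjusted p = 0.00646), and Lgals3 and Gpnmb, both also made outside macrophages, thus took opposite signs after P2.

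Cybb, the catalytic chain of the phagocyte NADPH oxidase, read 114 and 144 units at E19, 223 and 200 at P2, with 216 and 242 in adult pools. The E19 pools were lowest, and P2 and adult overlapped. Cybb was 1.79-fold higher in the adult than at E19 (log2 difference 0.84 ± 0.15 SE, adjusted p = 0.00720, limma). Its membrane partner Cyba, which many cell types make, ran the other way, from 1647 and 1555 units at E19 to 989 and 1175 at P2, with 293 and 286 in adult pools (adult minus E19 log2 difference -2.47 ± 0.11 SE, adjusted p = 0.00015). Of 5 oxidase partners, 3 were tested. In the adult, Cyba and Ncf4 were lower than at E19, beside 31.4% of all tested genes. Cyba and Rac2 were lower than at P2, beside 28.8%. None was called higher than at E19 or P2, where 25.2% and 21.8% of all tested genes were.

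**Figure D3:**
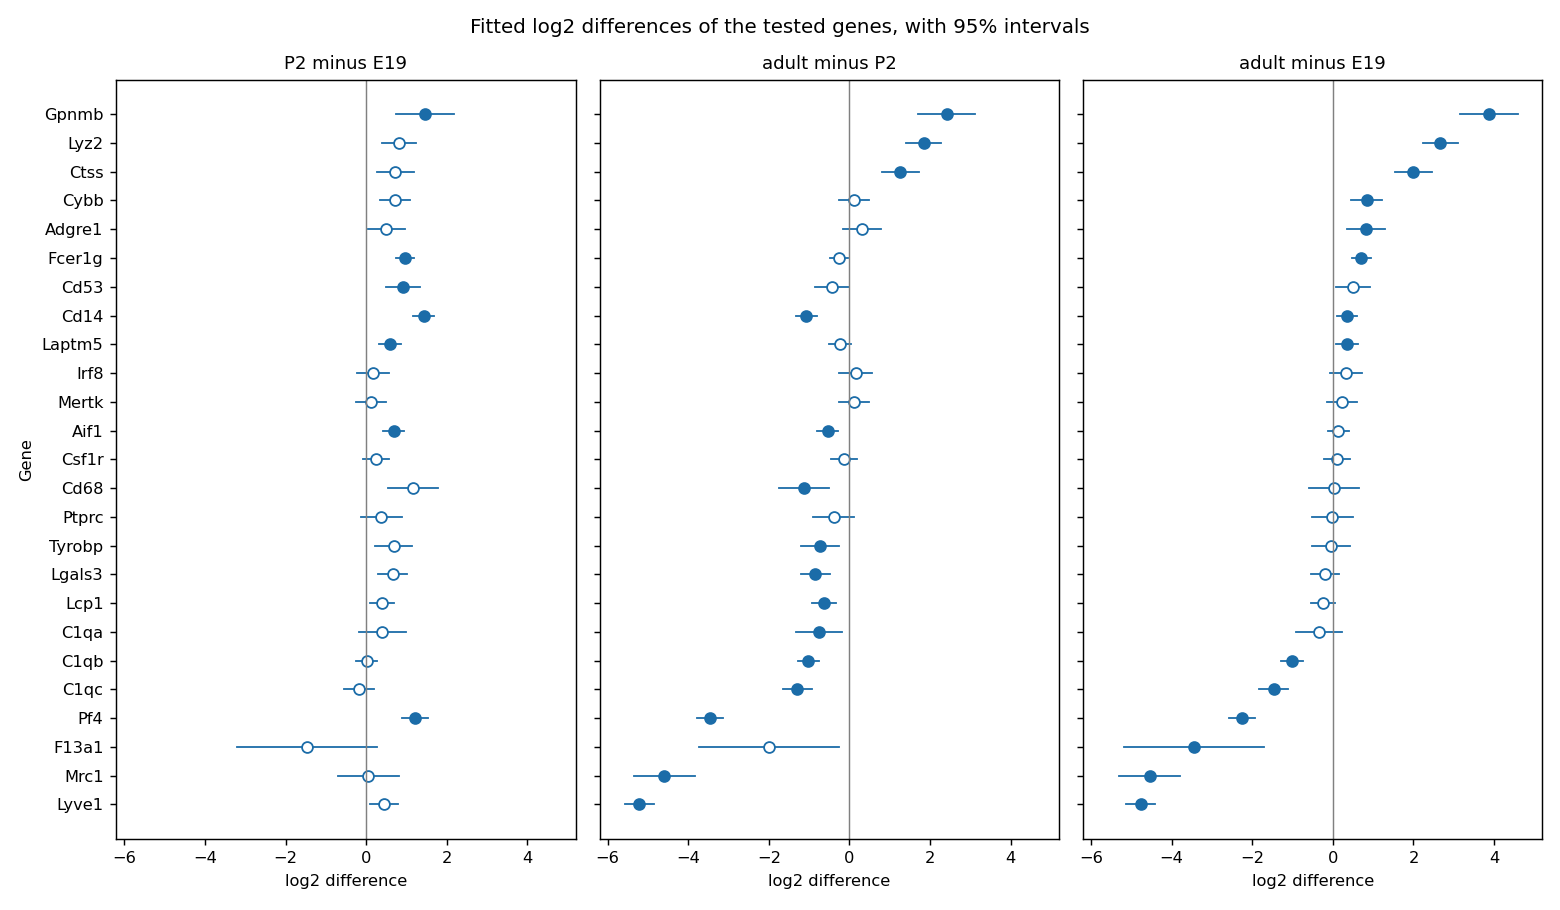
Fitted log2 differences of the 25 tested genes with 95% intervals (limma), ordered by adult minus E19, with filled points where the adjusted p was under 0.05. Values run from -4.77 for Lyve1 to 3.87 for Gpnmb in adult minus E19. Both adult intensities lay under 100 units for Lyve1, Mrc1, F13a1, Cd68 and Ptprc, and both E19 intensities for Cd68, Ptprc and Adgre1.

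Of the adaptors that carry activating signals of Fc and TREM receptors, Fcer1g rose from E19 to P2. Fcer1g, the common gamma chain of Fc receptors, read 401 and 411 units at E19, 831 and 754 at P2, with 670 and 657 in adult pools. The stages stood apart, with P2 highest. Fcer1g rose 1.95-fold from E19 to P2 (log2 difference 0.96 ± 0.09 SE, adjusted p = 0.0190, limma) and stayed 1.63-fold above E19 in the adult (adjusted p = 0.00247). Tyrobp, the DAP12 adaptor, read 148 and 128 units at E19, 199 and 243 at P2, with 153 and 116 in adult pools. Its P2 pools were highest and E19 and adult overlapped, and the 1.65-fold fall from P2 to adult passed (adjusted p = 0.0259), while the rise before it did not (adjusted p = 0.0915). The fall of Tyrobp lost its call without P2 replicate 2, without adult replicate 2 and with arrays centred on their median.

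The 3 Fc and TREM receptors among the markers stayed under the floor. Fcgr1a, the high-affinity IgG receptor, read 78.4 and 71.4 units at E19, 77.9 and 68.4 at P2, with 40.6 and 39.6 in adult pools. Fcgr2b, the inhibitory IgG receptor, lay between 0.950 and 32.3 units on all 6 arrays and Trem2, a lipid-sensing receptor, between 33.7 and 70.4. None of these 3 was tested.

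Of the 7 tested leukocyte membrane and cytoskeletal genes, Aif1, Laptm5 and Cd53 rose from E19 to P2, beside 3.61% of all tested genes. On the probe set chosen for each gene, Aif1, Lcp1 and Cd68 fell from P2 to adult, beside 28.8% of all tested genes. Aif1, the actin-bundling protein IBA1 used to stain macrophages, read 284 and 301 units at E19, 456 and 484 at P2, with 301 and 344 in adult pools. Both P2 pools were highest, and E19 and adult overlapped. Aif1 rose 1.61-fold from E19 to P2 (adjusted p = 0.0334, limma) and fell 1.46-fold to the adult (adjusted p = 0.0110), the latter a call lost without P2 replicate 2 and with arrays centred on their median. Lcp1, the actin-bundling plastin of leukocytes, read 231 and 199 units at E19, 297 and 265 at P2, with 178 and 184 in adult pools, and fell 1.55-fold from P2 to adult (adjusted p = 0.00966).

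Cd68, a lysosomal membrane protein of macrophages, read 67.4 and 81.4 units at E19, 209 and 130 at P2, with 76.1 and 74.2 in adult pools. It reached 100 units at P2 alone, and was at least 1.65-fold lower in the adult than at P2 (adjusted p = 0.0155, limma), a call lost without either adult array. Laptm5, another lysosomal membrane protein of blood cells, read 162 and 141 units at E19, 223 and 231 at P2, with 200 and 184 in adult pools. Its 1.50-fold rise to P2 (adjusted p = 0.0440) and 1.27-fold excess of the adult over E19 (adjusted p = 0.0421) were each lost in most alternatives. The second Laptm5 probe set read 96.42 and 65.05 units at E19, 186 and 187 at P2, with 104 and 83.9 in adult pools. It reached a mean of 100 units at P2 alone, so it was tested only through its highest stage. This probe set also rose to P2 (adjusted p = 0.0415), but it fell from P2 to adult (log2 difference -0.997, adjusted p = 0.0162, limma). Its adult minus E19 difference was not called (0.241, adjusted p = 0.388). Cd53, a leukocyte tetraspanin, read 99.8 and 103 units at E19, 220 and 168 at P2, with 155 and 131 in adult pools, and rose 1.90-fold from E19 to P2 (adjusted p = 0.0424), a call lost when any 1 array was left out.

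Adgre1, which encodes the adhesion receptor known as F4/80, read 68.1 and 80.1 units at E19, 111.6 and 98.4 at P2, with 112.0 and 153 in adult pools. E19 lay below both later stages. P2 and adult did not overlap, but the highest P2 value and the lowest adult value nearly coincided. Their difference was not called (adjusted p = 0.204, limma). The adult was at least 1.31-fold higher than E19 (adjusted p = 0.0154, limma), a call lost without E19 replicate 1 and with values under 100 units set to 100. Itgam, the alpha M integrin chain, lay between 2.72 and 8.47 units on every array, so that this probe set gave no reading above the floor at any stage.

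Csf1r, Ptprc, Irf8 and Mertk showed no called difference in any comparison. Csf1r, the receptor on which tissue macrophages depend, read 271 and 262 units at E19, 351 and 283 at P2, with 288 and 287 in adult pools. Its adult minus E19 log2 difference was 0.11 with a 95% interval from -0.21 to 0.43. Ptprc, the pan-leukocyte phosphatase CD45, read 84.1 and 98.1 units at E19, 139 and 99.7 at P2, with 98.3 and 82.3 in adult pools, near the floor throughout (adult minus E19 -0.01, interval -0.52 to 0.49). Irf8, a transcription factor of the monocyte and dendritic lineages, read 141 and 182 units at E19, 173 and 189 at P2, with 188 and 214 in adult pools (0.33, interval -0.08 to 0.73). For Mertk the difference was 0.22 with an interval from -0.15 to 0.59. Differences inside these intervals could not be told from 0 with 2 pools per stage. The scaling mattered here: with arrays centred on their median, adult minus E19 became 0.39 for Csf1r, 0.50 for Mertk and 0.60 for Irf8, and all 3 passed.

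The other 2 receptors were under the floor. Cx3cr1, the fractalkine receptor, read 7.68 and 5.42 units at E19, 54.1 and 47.7 at P2, with 41.4 and 31.1 in adult pools. Cd4, which rat macrophages also carry, lay between 8.55 and 71.1 units on all 6 arrays. Neither was tested.

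Genes outside the 35 were read from lists of related pathways. Of 12 further border macrophage and scavenger genes, 8 were on the array and 5 were tested. All 5 (Stab1, Folr2, Clec10a, Hpgds and Colec12) were lower in the adult than at P2, where 28.8% of all tested genes were. Of these, 4 were lower in the adult than at E19, beside 31.4% of all tested genes. For Hpgds all P2 and adult values lay under 100 units, so that its call after P2 rests on readings under the floor. Hpgds reached a mean of 100 units at E19 alone and Clec10a at P2 alone, so both were tested only through their highest stage. Stab1, a scavenger receptor of macrophages and sinusoidal endothelium, read 274 and 254 units at E19, 342 and 263 at P2, with 84.5 and 68.1 in adult pools. Stab1 was at least 2.64-fold lower in the adult than at E19 (adjusted p = 0.00106, limma). Clec10a, a galactose lectin of macrophages and dendritic cells, read 104 and 90.6 units at E19, 117 and 151 at P2, with 40.8 and 16.0 in adult pools, at least 1.33-fold lower than at P2 (adjusted p = 0.0103). Colec12, a scavenger collectin that stromal and endothelial cells also make, read 8988 and 8980 units at E19, 7132 and 7021 at P2, with 2329 and 2171 in adult pools.

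Gas6, Pros1 and Cx3cl1, ligands of Mertk and Cx3cr1, were higher in the adult than at E19 and P2. Gas6, which bridges dying cells to Mertk, read 3828 and 3957 units at E19, 6080 and 5287 at P2, with 11032 and 10778 in adult pools. Pros1, a second bridging ligand of Mertk, read 890 and 899 units at E19, 1283 and 1285 at P2, with 2327 and 2199 in adult pools. In both the stages rose without overlap, by 1.49 ± 0.10 and 1.34 ± 0.08 (SE) on the log2 scale from E19 to adult. Cx3cl1, the ligand of Cx3cr1, was 1.04 ± 0.16 higher on that scale. These 3 tested ligands all passed in adult over P2 and adult over E19, beside 21.8% and 25.2% of all tested genes. The fourth of the list, Tgfb1, was not tested.

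Of the ligands of Csf1r, Il34 read 170 and 141 units at E19, 216 and 251 at P2, with 382 and 316 in adult pools (adult minus E19 log2 difference 1.17 ± 0.16 SE, adjusted p = 0.00305, limma). Csf1, the other ligand, read 243 and 245 units at E19, 192 and 227 at P2, with 245 and 238 in adult pools, with no call. In this list of 12 receptors, ligands and regulators, 6 were tested. Il34 was the 1 gene that rose after P2, and Csf2ra, Maf and Runx1 fell, beside 21.8% and 28.8% of all tested genes. Runx1, a transcription factor of blood lineages, went from 408 and 434 units at E19 to 75.7 and 105 in the adult, and Maf, a transcription factor of macrophages and other cells, from 4565 and 4108 to 2059 and 2409.

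**Figure D4:**
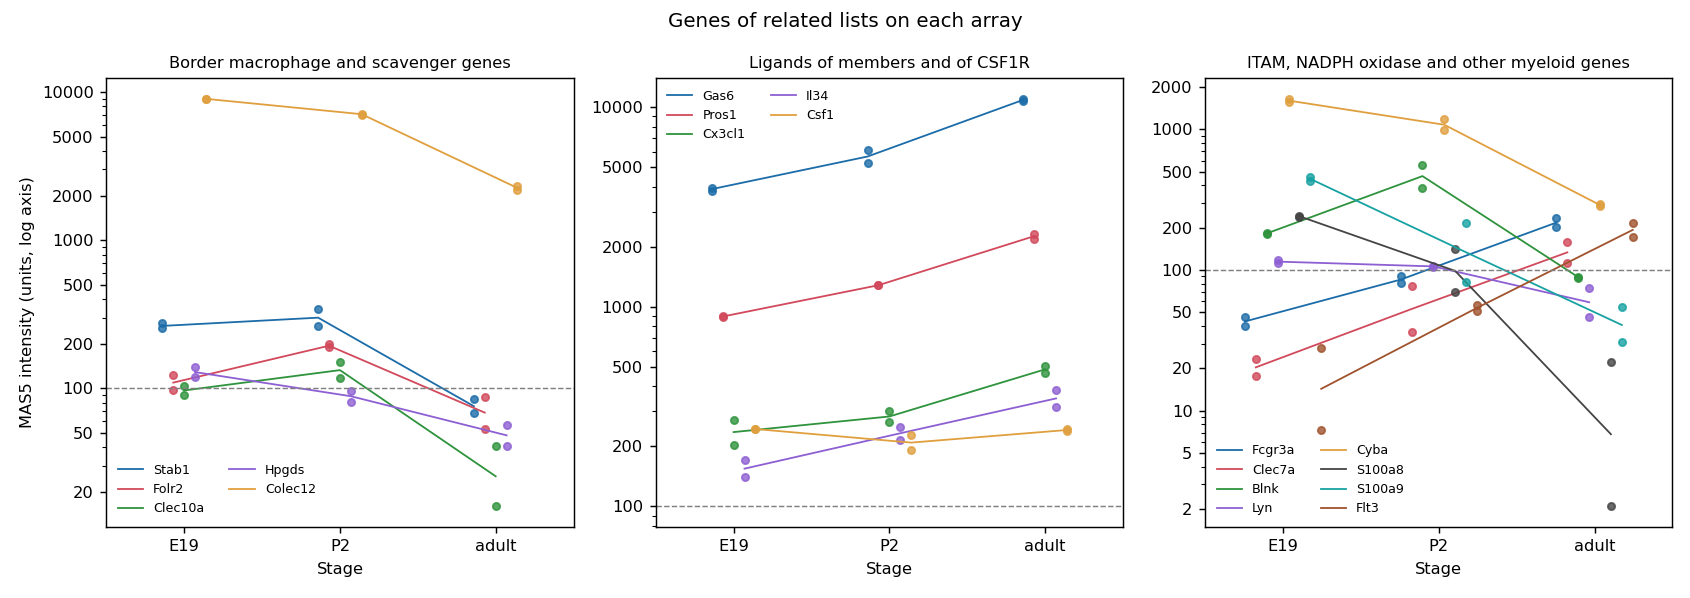
Points give the MAS5 intensity on each array (log axis) for genes of related lists, lines join geometric means of the 2 pools, and the dashed line marks 100 units. The 5 border macrophage and scavenger genes are lowest in the adult, Gas6, Pros1, Cx3cl1 and Il34 are highest in the adult, and Fcgr3a, Clec7a and Flt3 rise where Cyba, Lyn, S100a8 and S100a9 fall.

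Signalling partners of the ITAM adaptors were mixed, with 6 of 15 tested. Fcgr3a, the activating IgG receptor chain that uses Fcer1g, read 39.9 and 46.6 units at E19, 91.2 and 80.3 at P2, with 235 and 201 in adult pools, at least 2.18-fold higher in the adult than at either earlier stage (adjusted p = 0.000276 against E19, limma). Fcgr3a reached a mean of 100 units in the adult alone, as did Clec7a and Flt3, so these genes were tested only through the stage where they were high. Clec7a, the beta-glucan receptor dectin-1, read 17.7 and 23.4 units at E19, 77.4 and 36.1 at P2, with 159 and 112 in adult pools. Ptpn6, an inhibitory phosphatase of blood cells, was also higher in the adult than at E19 (log2 difference 0.53 ± 0.12 SE). Blnk, an adaptor of B cells and macrophages, followed the P2 peak, from 184 and 180 units at E19 to 562 and 385 at P2, with 88.4 and 89.7 in adult pools, and was at least 4.65-fold lower in the adult than at P2 (adjusted p = 0.000767). Lyn and Inpp5d were lower in the adult than at E19.

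Of 13 integrin partners and pan-leukocyte genes, 7 were tested. Arhgdib, Cd52, Cd48 and Rac2 were lower in the adult than at P2, beside 28.8% of all tested genes. Against E19, Arhgdib, Cd52 and Cd48 were lower and Coro1a higher in the adult, beside 31.4% and 25.2%. Among 9 receptors for complement, pathogens and related signals, 3 were tested. C5ar1, the receptor of the complement fragment C5a, peaked at P2 (108 and 120 units at E19, 186 and 196 at P2, with 66.4 and 70.8 in adult pools), Cd83 fell and Ly96, the partner of the lipopolysaccharide receptor, rose. All 8 lipid-handling genes were tested. After P2, Lpl, Abca1 and Ctsb rose and Apoe, Spp1 and Plin2 fell, beside 21.8% and 28.8% of all tested genes. Ctsd, cathepsin D, and Cd9 had no call after P2. Before that, Apoe had risen from E19 to P2 while Abca1 had fallen.

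Markers of other cell types gave the setting of these values. Htr2c, a serotonin receptor of the choroid epithelium, showed no called difference in any comparison. Of 8 epithelial genes 7 were on the array and 6 were tested. Among these 6, Kl rose after P2 and was higher in the adult than at E19, Otx2 was lower in the adult than at E19, and 4 had no call, with a summed intensity from 61022 to 68734 units over all arrays. All 6 proliferation genes were lower in the adult than at P2 and at E19, beside 28.8% and 31.4% of all tested genes. For microglia, 3 of 8 genes were tested: Olfml3 and Tmem119 were lower in the adult and P2ry12 had no call. The microglia sums ran from 2314 to 2395 units at E19, 2231 to 2259 at P2 and 848 to 881 in the adult, and most of each was Olfml3.

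Among other leukocytes, the neutrophil calprotectin genes S100a8 and S100a9 fell, S100a9 from 430 and 460 units at E19 to 82.6 and 217 at P2, with 54.3 and 30.6 in adult pools. The 6 neutrophil genes on the array, none listed at 0, summed to between 795 and 797 units at E19, 203 and 457 at P2, with 124 and 150 in adult pools. Of these 6, 4 had means under 100 units at every stage. Neutrophils also make Lyz2. Of 6 monocyte genes, Plac8 and Fn1 were tested. Both were lower in the adult than at P2 and at E19, beside 28.8% and 31.4% of all tested genes. The monocyte sums ran from 2008 to 2053 units at E19, 1246 to 2106 at P2 and 409 to 485 in the adult. Most of each sum was Fn1, which read 1726 and 1621 units at E19 and 315 and 353 in the adult. Ccr2, Vcan and Cd44 had means under 100 units at every stage. Flt3, the growth factor receptor of dendritic cells and the 1 tested gene of its list, read 27.9 and 7.36 units at E19, 51.0 and 56.9 at P2, with 173 and 215 in adult pools, at least 1.93-fold higher in the adult than at E19 (adjusted p = 0.00565, limma). Of 8 T cell genes, Lck alone was tested and was lower in the adult, no B cell gene on the array reached the floor, and the 2 mast cell genes tested had no call. The part of these cells in the values of Lyz2, Ctss and Gpnmb was not tested.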

How the data were processed

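RNA of 6 pools of rat LVCP (2 per stage at E19, P2 and adult) was hybridised to Affymetrix rat expression arrays. The deposited values are intensities on a linear scale that the authors made per array with MAS5 in Affymetrix Expression Console (per the labels), scaled to a trimmed mean of 500.0; no versions were given in the sources used here, and arrays carry no read depth, so the number of pools limits the precision. The table held 31099 probe sets. After removal of 57 controls, 17808 whose stage mean reached 100 units at one or more of the stages were tested. Probe sets were named from the platform annotation (20832 with 1 gene, 436 with several, 9831 with none).

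Intensities were taken to log2 and fitted with limma 3.58.1 in R 4.3.3 over all 6 arrays, 1 mean per stage, two-sided, with Benjamini-Hochberg adjustment over all tested probe sets and a threshold of 0.05. Intervals are 95% intervals from that fit. With 2 pools per stage, p-values set a stage difference against the spread between pools. That spread was estimated over all 3 stages and moderated over all tested probe sets. If neither array of a stage reached 100 units, a fold is a bound against that floor, and none is given where both stages lie under it. The script was tested on simulated data. Alternatives changed the filter, the scaling, the floor, the arrays in the fit, the intensity trend, the replicate block and the probe sets. The markers and lists were chosen with earlier results of these data known. All 35 markers are named. From other lists, the called genes with the largest differences were named (at most 3 per direction and comparison), with the brightest gene of each other cell type. Csf1, Folr2, Hpgds and further genes named only for a list's count were chosen after their values were seen. Promoters came from RefSeq (GRCr8), and motifs were searched on both strands.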

Additional observations from a re-analysis of the deposited data

How the results depend on the processing

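The 2 counts of adult against P2 (3 higher, 12 lower) and the count of 6 lower in the adult than at E19 stayed within 1.5 times their value under every alternative run. The count of 7 markers higher at P2 than at E19 was 0 with no filter, 12 with values under 100 units set to 100, 4 with only the 2 stages compared, 11 with an intensity trend, 1 with the replicate block, 0 at an adjusted p under 0.01, and from 0 to 4 with 1 array left out (0 without either E19 or either P2 array). The count of markers lower at P2 was 0, with 2754 tested genes at an unadjusted p under 0.05 in either direction in limma, and became 1 (F13a1) with values under 100 units set to 100. The count of 8 higher in the adult than at E19 was 13 with arrays centred on their median, 5 at an adjusted p under 0.01 and from 5 with E19 replicate 1 left out to 8. Centring moved the median adult minus E19 log2 difference of the tested probe sets from -0.05 to 0.23. Over all genes, the adult minus P2 calls were 2255 higher and 2981 lower as deposited and 3763 and 1966 after centring, and the adult minus E19 calls 2606 and 3241 as deposited and 4172 and 2087 after centring. All-gene calls for P2 over E19 and P2 under E19 (373 and 265) were 0 and 0 with no filter, 694 and 550 with values under 100 units set to 100, 904 and 701 with an intensity trend, and 37 and 22 with the replicate block.

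The replicate numbers did not pair the arrays: differences between pool 1 and pool 2 correlated at -0.06 (E19 with P2), -0.04 (E19 with adult) and 0.01 (P2 with adult) over tested probe sets, so the paired fit is given only as an alternative. Some uncalled differences changed sign. After centring on the median, adult minus P2 became 0.123 for Csf1r, 0.00023 for Fcer1g and 0.0136 for Laptm5, and adult minus E19 became 0.262 for Ptprc, 0.233 for Tyrobp, 0.0322 for Lcp1 and 0.0864 for Lgals3. After quantile normalization they became 0.0401 for Csf1r (adult minus P2), 0.249 for Ptprc and 0.216 for Tyrobp. With 1 array left out, P2 minus E19 ran from -0.277 to 0.373 for Mrc1, -0.0760 to 0.101 for C1qb, -0.0332 to 0.262 for Mertk and -0.0118 to 0.363 for Irf8, adult minus P2 from -0.289 to 0.0244 for Csf1r and -0.0409 to 0.255 for Mertk, and adult minus E19 from -0.115 to 0.157 for Cd68, -0.142 to 0.113 for Ptprc and -0.243 to 0.155 for Tyrobp. The cause was not tested. Intensities under 100 units limit what can be said of Cd163, Cx3cr1, Cd4, Itgam, Fcgr1a, Fcgr2b and Trem2.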
